A study of Drosophila melanogaster with 6 samples.

Results

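Proteins that a cell secretes or places in its membranes are folded in the endoplasmic reticulum (ER), and 122 of the 17611 genes in the count table carry the pathway annotation "Protein processing in endoplasmic reticulum" without the annotation "Proteasome". These 122 genes were taken as the pathway, and 0 genes carried both annotations. Transcripts were measured in Malpighian tubules, the renal organs of Drosophila melanogaster, from tumour flies with 1 copy each of esg-GAL4, UAS-GFP, tub-GAL80TS and UAS-yki3SA, and from control flies with 1 copy each of esg-GAL4, UAS-GFP and tub-GAL80TS, with 3 libraries in each group. All flies were virgins that spent 6 to 8 days at 18 °C before 8 days at 29 °C, a shift that releases GAL4 from the temperature-sensitive repressor GAL80, and 80 tubules per genotype were lysed. The yki3SA transgene encodes an active form of Yorkie, a growth regulator of the Hippo pathway, and its expression in intestinal progenitors makes gut tumours. The driver follows esg, a gene that progenitor cells of the tubule also use, so a signal from the gut and an effect of yki3SA inside the tubule cannot be told apart. No label states that the 3 libraries of a genotype are separate cultures, so the spread on which the p-values rest may be technical.

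A new secretory protein enters the ER through the Sec61 channel, receives a glycan from the oligosaccharyltransferase, folds with the help of chaperones, lectins and disulfide isomerases, and leaves in COPII vesicles. Proteins that fail to fold are tagged with ubiquitin, drawn back into the cytosol by the TER94 ATPase and degraded, a route called ER-associated degradation. When unfolded proteins accumulate, the sensors Ire1, PEK and Atf6 slow translation and raise the transcription of folding and degradation genes, which is the unfolded protein response. In fly tubules this machinery serves the pumps, channels and transporters of the epithelium.

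Library totals were 34640437 to 49338340 counts in tumour libraries and 36088638 to 45728599 in control libraries. The 20 most abundant genes held 15.3 to 17.0% of counts in tumour libraries and 19.8 to 21.0% in control libraries. Levels are counts scaled to a common library size (CPM), adjusted by TMM, the trimmed mean of M-values, which sets the bulk of genes equal between libraries. Transcripts of yki were at 84.3, 90.8 and 76.9 CPM in tumour tubules, against 79.6, 63.5 and 79.4 CPM in control tubules (adjusted p = 0.331), and esg was at 3.75 ± 2.63 CPM in tumour and 5.78 ± 0.299 CPM in control tubules (SD, n = 3 each). No marker of the tubule's principal or stellate cells was at 0 in every library. Of 11 principal cell markers 4 were lower and 0 higher in tumour tubules, with a summed level of 10879 to 14087 CPM in tumour and 16648 to 23251 CPM in control libraries. Of 7 stellate cell markers 3 were lower and 0 higher, with a summed level of 1027 to 1174 CPM in tumour and 1409.6 to 1605 CPM in control libraries. Markers of other tissues moved too: 8 of 11 midgut markers were lower (16.3 to 105 CPM in sum in tumour, 232 to 667 CPM in control libraries), as were 4 of 7 tested fat body markers (184 to 361 CPM in tumour, 2475 to 5849 CPM in control libraries), 3 of 6 tested hemocyte markers (62.1 to 69.2 CPM in tumour, 109.5 to 174 CPM in control libraries) and 6 of 10 germline and eggshell markers (4.04 to 21.8 CPM in tumour, 107 to 241 CPM in control libraries). Of 7 muscle markers 2 were higher, Tm1 (0.53) and Zasp52 (0.73). The 7 summed to 953 to 1045 CPM in tumour and 803 to 888 CPM in control libraries. The other muscle markers, Mhc, Act57B, up, wupA and Mlc2, went the other way without passing (log2 fold changes of -0.21 to -0.48). Of 4 tested progenitor markers and 5 tested tracheal markers 0 were higher and 0 lower. Of 5 tested enteroendocrine markers 1 was higher, CCHa1 (2.87), and 1 lower, CCHa2 (-2.36). For all these lists the backgrounds were 14.8% of all genes higher and 13.0% lower. The part of these markers in the pathway results was not tested, and in bulk tissue fewer cells of a type and less RNA per cell cannot be told apart.

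Most genes of the pathway differed little between the groups. Those that passed the test included 11 genes of ER-associated degradation, all higher in tumour tubules, and 3 genes of protein import, all lower. Of those 11, 6 belonged to extraction and delivery to the proteasome, 2 to cytosolic ligases, 2 to ubiquitin conjugation and 1 to the membrane core. Of the 122 genes 107 had enough counts to be tested, and 20 were higher and 6 lower in tumour tubules (edgeR quasi-likelihood test, Benjamini-Hochberg adjustment over all 9789 genes tested, adjusted p under 0.05). This is 24.3% of those tested, below the background of 27.8% of all genes. Higher genes made up 18.7% against a background of 14.8%, and lower genes 5.61% against 13.0%. The median log2 fold change of the 107 was 0.17, against 0.08 for all genes, and the median size of the change was 0.26 against 0.43. In 86 of the 107 the change was under 0.5 on the log2 scale. The share of all genes under 0.5 was not counted, and their median size of 0.43 also lies under it. Only 1 called gene of the pathway changed at least 2-fold, while 1143 of the 2726 called genes of the whole table did. In 36 genes (33.6%) the tumour libraries all lay above the control libraries and in 10 (9.35%) all below, against backgrounds of 26.8% and 20.1%. The pathway took 1.85, 2.16 and 2.21% of all counts in tumour libraries and 1.48, 1.72 and 1.76% in control libraries, without overlap. Scaled by TMM its summed level was 17441, 20057 and 18836 CPM in tumour libraries and 17170.4, 18233 and 19334 CPM in control libraries, with overlap.

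The scaling sets the balance of these counts. With library totals alone, which moved the median of all genes by 0.29 on the log2 scale to 0.37, 49 pathway genes were higher and 2 lower, against backgrounds of 31.5% and 8.48%. All 20 higher calls held there, and of the 6 lower calls only PEK and Sec61alpha did. This scaling raised the log2 fold change of every called gene, so it is no test of the higher calls. The calls of 11 genes held in every one of 15 alternative settings, namely alpha-Man-Ia, STUB1, CG10973, SkpA, CG5823, Ufd1, alpha-Man-Ib, TER94 and sordd1, which were higher, and Sec61alpha and PEK, which were lower.

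**Figure D1:**
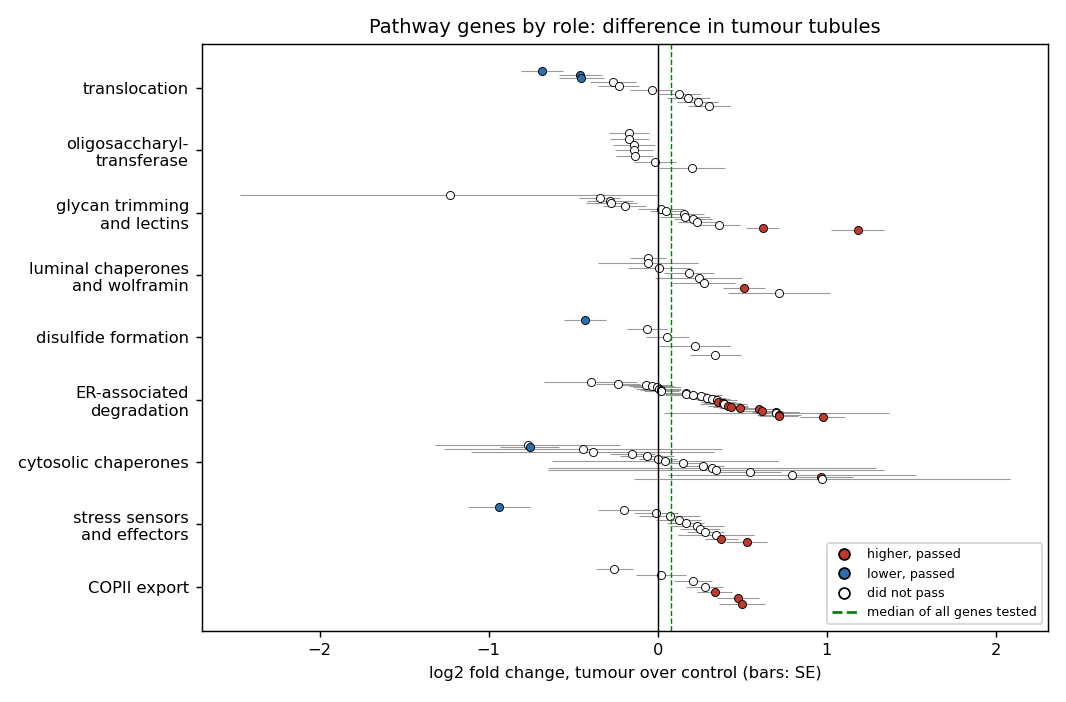
Log2 fold change of tumour over control (horizontal axis, with SE bars) for the 107 tested genes of the pathway, grouped in rows by role; red points were higher, blue points lower and white points did not pass the edgeR test, and the dashed line is the median of all genes at 0.08. Most points lie within 0.5 of 0, and the red points gather in the row of ER-associated degradation.

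**Figure D2:**
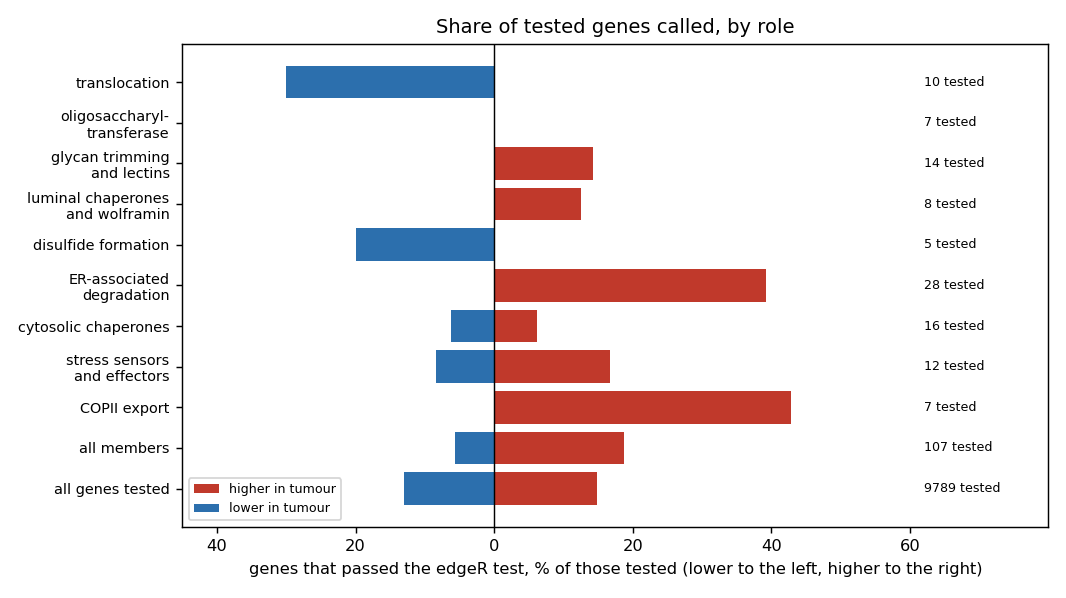
Share of tested genes that were higher (red, to the right) or lower (blue, to the left) in tumour tubules, in percent of those tested, for 9 roles, all pathway genes and all genes of the table. The oligosaccharyltransferase has no bar, translocation has only a bar to the left, and the background of all genes is 14.8% higher and 13.0% lower.

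Genes of protein import into the ER included 3 of the 6 lower calls. Of 10 tested translocation genes 3 were lower, against a background of 13.0% of all genes, and 0 were higher, and the median log2 fold change was -0.13. With library totals alone 4 were higher and 1 lower, against backgrounds of 31.5 and 8.48% of all genes. The median was then 0.15, against 0.37 for all genes. It lay below the median of all genes with TMM too (-0.13 against 0.08). Sec61alpha, the pore subunit of the channel (FBgn0086357, BDGP6 chromosome 2L, 6477182 to 6480575), was at 220.0, 273 and 229.6 CPM in tumour tubules, against 411, 373 and 377 CPM in control tubules. The groups did not overlap, and the level was 1.61-fold lower in tumour tubules (log2 fold change -0.68 ± 0.13, SE; adjusted p = 0.00652). The other 2 channel subunits were not lower: Sec61beta was at 139, 117 and 114 CPM in tumour and 100.1, 90.6 and 108 CPM in control tubules (0.31, adjusted p = 0.102; 0.59 and 0.00554 with library totals alone, 0.00554 to 0.391 over all alternatives), and Sec61gamma was at 28.5 ± 1.64 CPM in tumour and 25.1 ± 2.79 CPM in control tubules (adjusted p = 0.326). TRAM, a helper of the channel, was at 68.0, 68.9 and 63.0 CPM in tumour tubules, against 88.9, 80.8 and 105 CPM in control tubules (-0.46 ± 0.12, adjusted p = 0.0293). The gene l(1)G0320, annotated as the alpha subunit of the translocon-associated protein complex, was at 139, 162 and 145 CPM in tumour tubules, against 221, 173 and 217 CPM in control tubules (-0.45 ± 0.13, adjusted p = 0.0387). The calls of TRAM and l(1)G0320 were lost without any 1 library other than control replicate 2 (adjusted p 0.0544 to 0.103 and 0.0626 to 0.123) and with library totals alone (0.297 and 0.322, the highest of their alternatives, whose lowest were 0.00420 and 0.00334).

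The next step, the transfer of the glycan, showed no called difference. Of the 7 subunits of the oligosaccharyltransferase 0 passed the edgeR test, DESeq2 or limma-voom, and 0 had an unadjusted p under 0.05. Their median log2 fold change was -0.14. Ost48, a structural subunit, was at 92.1, 112 and 96.8 CPM in tumour tubules, against 117, 112 and 108 CPM in control tubules (adjusted p = 0.308). OstDelta, the fly ribophorin II, was at 106 ± 11.1 CPM in tumour and 119.7 ± 8.39 CPM in control tubules (adjusted p = 0.327).

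Among enzymes and lectins that read the glycan, 2 mannosidase genes were higher. Of 14 tested genes 2 were higher, a share near the background of 14.8%, and 0 lower, against 13.0%. The median was 0.10. Library totals alone gave 7 higher calls, against a background of 31.5%. The largest difference of any called pathway gene was that of alpha-Man-Ia, which encodes a class I mannosidase that removes mannose from N-glycans (FBgn0259170, BDGP6 chromosome X, 10266792 to 10325958). It was at 108, 94.8 and 82.8 CPM in tumour tubules, against 48.4, 41.9 and 35.3 CPM in control tubules, so every tumour library lay above every control library. The level was 2.27-fold higher (1.18 ± 0.15, adjusted p = 0.00135). Its relative alpha-Man-Ib was at 76.9, 71.8 and 74.1 CPM in tumour tubules, against 46.9, 47.7 and 50.2 CPM in control tubules (0.62 ± 0.10, adjusted p = 0.00355). The third class I gene, alpha-Man-Ic, was at 1.44, 0.431 and 0.276 CPM in tumour tubules, against 0.203, 0.325 and 4.49 CPM in control tubules, and its groups overlapped (adjusted p = 0.503).

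Calr, the calcium-binding lectin calreticulin, was at 1262, 1518 and 1277 CPM in tumour tubules, against 1033, 1146 and 982 CPM in control tubules. The groups did not overlap, but the difference missed the threshold (0.36 ± 0.13, adjusted p = 0.0717) and passed it with library totals alone (0.64, adjusted p = 0.00503; 0.00503 to 0.218 over all alternatives). Its membrane-bound counterpart Cnx99A, a calnexin, had the opposite sign, at 341, 483 and 418 CPM in tumour tubules, against 461, 522 and 521 CPM in control tubules (-0.28 ± 0.15, adjusted p = 0.211; 0.01 with library totals alone). GCS2beta, a subunit of glucosidase II, was at 129.8, 161 and 147 CPM in tumour tubules, against 188, 194 and 173 CPM in control tubules (-0.34 ± 0.12, adjusted p = 0.0670), and passed in 4 of 15 alternatives (0.00882 to 0.748 over all). Uggt, the folding sensor that adds glucose back to misfolded glycoproteins, and the demannosylating factors Edem1 and Edem2 did not pass (adjusted p = 0.450, 0.208 and 0.930).

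Most chaperones of the ER lumen differed more between libraries of a group than between the groups, and Grp170 did so among tumour libraries only. Of the 8 genes in this list 1 was higher, wfs1, which encodes the ER membrane protein wolframin and is no luminal chaperone. The background was 14.8% higher. With library totals alone 3 genes of the list were higher, against a background of 31.5%. The wfs1 gene was at 18.5, 20.3 and 20.03 CPM in tumour tubules, against 14.0, 13.7 and 13.5 CPM in control tubules (0.51 ± 0.12, adjusted p = 0.0178). Its call was lost without control replicate 3 or tumour replicate 2 (adjusted p = 0.0644 and 0.0650; 0.00400 to 0.0650 over all alternatives). Hsc70-3, the fly BiP and the main target gene of the unfolded protein response in the lumen, was at 508, 853 and 848 CPM in tumour tubules, against 513, 1026 and 760.1 CPM in control tubules. The groups overlapped, and the log2 fold change was -0.06 ± 0.29 (adjusted p = 0.906). Gp93, the fly GRP94, was at 202, 323 and 265 CPM in tumour tubules, against 157, 296 and 214 CPM in control tubules (0.24 ± 0.26, adjusted p = 0.521). Grp170, a large HSP70-type chaperone, was at 239 ± 41.4 CPM in tumour and 210.0 ± 4.46 CPM in control tubules (adjusted p = 0.381). Sil1, a nucleotide exchange factor for BiP, was at 11.2, 17.4 and 23.3 CPM in tumour tubules, against 8.08, 14.0 and 9.50 CPM in control tubules (0.72 ± 0.30, adjusted p = 0.116).

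The disulfide isomerases gave 1 lower call and 0 higher calls among 5 tested genes, against backgrounds of 13.0 and 14.8%. Library totals alone gave 2 higher and 0 lower calls, against backgrounds of 31.5 and 8.48% with that scaling. The lower gene was prtp (pretaporter), a thioredoxin-domain protein, at 76.9, 89.4 and 81.1 CPM in tumour tubules, against 125, 99.7 and 109 CPM in control tubules (-0.43 ± 0.12, adjusted p = 0.0344). Its call was lost without any 1 library other than control replicate 2 (adjusted p 0.0570 to 0.103) and with library totals alone (0.363; 0.00356 to 0.363 over all alternatives). Pdi, the main protein disulfide isomerase, was at 597, 669 and 588 CPM in tumour tubules, against 672, 671 and 593 CPM in control tubules (-0.06 ± 0.12, adjusted p = 0.730). ERp60, an isomerase that works with calreticulin and calnexin, was at 681, 779 and 659 CPM in tumour and 698, 726 and 613 CPM in control tubules (adjusted p = 0.769). Ero1L, the oxidase that recharges Pdi, was at 31.3, 43.5 and 43.3 CPM in tumour tubules, against 29.9, 30.4 and 33.0 CPM in control tubules (0.34 ± 0.15, adjusted p = 0.126), and passed without tumour replicate 1 (adjusted p = 0.0443; 0.0225 to 0.311 over all alternatives).

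The libraries ranked alike for many of these genes. Among the 13 tested genes of the chaperone and disulfide lists, wfs1 included, tumour replicate 1 was the lowest tumour library in 11 and tumour replicate 2 the highest in 10, against 36.7 and 29.7% of all genes, and 8 showed both. Control replicate 1 was the lowest control library in 8 and control replicate 2 the highest in 8, against 31.6 and 33.8% of all genes, and 7 showed both. For Hsc70-3 the highest library exceeded the lowest 1.68-fold among tumour libraries and 2.001-fold among control libraries, against medians of 1.33 and 1.34 over all genes.

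**Figure D3:**
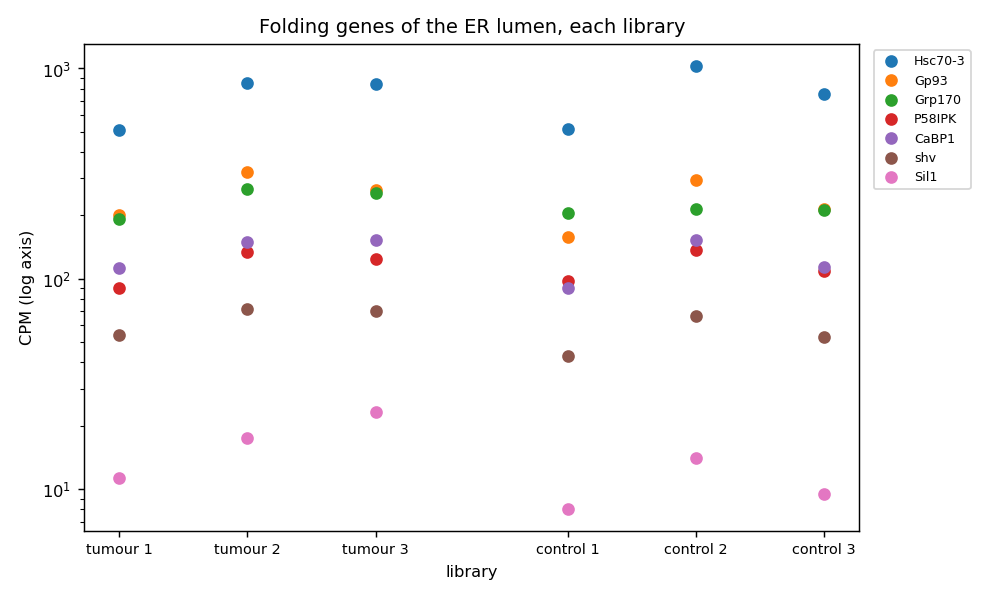
CPM (vertical log axis) of 7 folding genes of the ER lumen in each of the 3 tumour and 3 control libraries; each colour is 1 gene and each point 1 library. Hsc70-3 runs from 508 to 853 CPM in tumour libraries and from 513 to 1026 CPM in control libraries, and Sil1, Gp93 and CaBP1 are also low in tumour replicate 1 and control replicate 1.

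ER-associated degradation held 11 of the 20 higher calls. Of 28 tested genes 11 were higher and 0 lower, against backgrounds of 14.8 and 13.0% of all genes. Their median log2 fold change was 0.34. The summed level of the 38 genes of this role was 3102, 3125 and 3093 CPM in tumour libraries, against 2626, 2472 and 2443 CPM in control libraries, with no overlap between the groups. The higher calls numbered between 6 (without control replicate 3) and 9 (without control replicate 1), with 7 without tumour replicate 1. Library totals alone gave 18, against a background of 31.5%.

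Extraction from the ER and delivery to the proteasome made up 6 of these 11 calls, among 10 tested genes. The groups within this role were made after values were seen, and the background was 14.8% higher. TER94 (FBgn0286784, BDGP6 chromosome 2R, 9989159 to 9993559), the fly p97 ATPase that pulls proteins out of the ER membrane, was at 504, 555 and 538 CPM in tumour tubules, against 383, 345 and 312 CPM in control tubules. The difference was 1.54-fold, with every tumour library above the controls (0.62 ± 0.12, adjusted p = 0.00892). Ufd1, which binds TER94 and recognises ubiquitin, was at 51.5, 42.4 and 40.03 CPM in tumour tubules, against 28.6, 29.2 and 24.8 CPM in control tubules (0.70 ± 0.14, adjusted p = 0.00826). Npl4, the partner of Ufd1, was at 68.8, 71.3 and 76.7 CPM in tumour tubules, against 65.3, 56.5 and 55.5 CPM in control tubules, without overlap, and did not pass (0.29, adjusted p = 0.0907). The other 4 calls of this group, Pngl, p47, Ubqn and Rad23, were named after their values were seen. Pngl, an N-glycanase-like gene, was at 77.5, 86.6 and 83.0 CPM in tumour tubules, against 63.7, 61.4 and 58.1 CPM in control tubules (0.43, adjusted p = 0.0178). The TER94 cofactor p47 was at 92.7, 84.9 and 84.9 CPM in tumour tubules, against 69.3, 55.1 and 63.2 CPM in control tubules (0.48, adjusted p = 0.0202). The proteasome shuttles Ubqn (ubiquilin) and Rad23 were at 233 ± 3.58 and 119 ± 3.93 CPM in tumour and 182 ± 4.27 and 91.1 ± 8.69 CPM in control tubules (0.36 and 0.38, adjusted p = 0.0326 and 0.0355). Each of these 4 calls was lost without some library, with adjusted p up to 0.0711 for Pngl, 0.0769 for p47, 0.0990 for Ubqn and 0.112 for Rad23, the highest over all alternatives, whose lowest values lay between 0.00143 and 0.00238. Ubqn was lost without any of the 6 libraries in turn, Rad23 without any other than control replicate 1, Pngl without control replicate 3 or tumour replicate 2, and p47 without control replicate 3 or tumour replicate 1.

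Of the 6 tested cytosolic ligase genes 2 were higher, against a background of 14.8%. STUB1, the fly CHIP, a ubiquitin ligase that works with HSP70 and HSP90, was at 33.9, 32.2 and 40.8 CPM in tumour tubules, against 16.9, 19.1 and 18.3 CPM in control tubules (0.98 ± 0.13, 1.97-fold, adjusted p = 0.00163). SkpA, the adaptor of SCF ubiquitin ligases, was at 235, 201 and 197 CPM in tumour tubules, against 133, 128 and 124 CPM in control tubules (0.72 ± 0.12, adjusted p = 0.00364). In both genes the lowest tumour library was above the highest control library by more than the control libraries differed from each other. Of the other SCF subunits, Cul1 and Roc1a also lay above the control range in every tumour library without passing. Cul1 was at 94.2, 102 and 116 CPM in tumour tubules, against 88.3, 77.7 and 78.6 CPM in control tubules (0.35, adjusted p = 0.0589), and Roc1a was at 116, 89.0 and 94.7 CPM in tumour tubules, against 84.9, 74.7 and 68.8 CPM in control tubules (0.39, adjusted p = 0.0688). The SkpA relative SkpB was at 0.653, 0.340 and 0.517 CPM in tumour tubules, against 0.228, 0.541 and 0.152 CPM in control tubules, with overlapping groups (adjusted p = 0.471).

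The membrane core of the degradation pathway gave 1 higher call among 8 tested genes, near the background of 14.8%. It was sordd1, annotated as a membrane RING-type ubiquitin ligase, at 113, 91.7 and 95.4 CPM in tumour tubules, against 66.4, 63.8 and 67.6 CPM in control tubules (0.60 ± 0.11, adjusted p = 0.00753). The ligase gene sip3, the fly HRD1, was at 64.6, 88.4 and 79.2 CPM in tumour tubules, against 70.4, 84.4 and 78.4 CPM in control tubules (-0.01 ± 0.14, adjusted p = 0.982). Its partner Hrd3 and the channel-like derlins Der-1 and Der-2 had log2 fold changes of -0.07, 0.01 and 0.17, and none passed (adjusted p = 0.770, 0.980 and 0.357). Among 4 tested ubiquitin-conjugating enzymes 2 were higher, against the same background. CG5823, annotated as a UBE2J2-type enzyme of the ER, was at 58.5, 69.3 and 75.5 CPM in tumour tubules, against 45.0, 39.8 and 39.0 CPM in control tubules (0.72 ± 0.13, adjusted p = 0.00614). CG40045, annotated as a UBE2G1-type enzyme and named after its value was seen, was at 77.9 ± 8.33 CPM in tumour and 58.3 ± 2.82 CPM in control tubules (0.42, adjusted p = 0.0326), a call lost without any 1 library other than tumour replicate 2 (adjusted p 0.0658 to 0.115; 0.00383 to 0.115 over all alternatives).

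**Figure D4:**
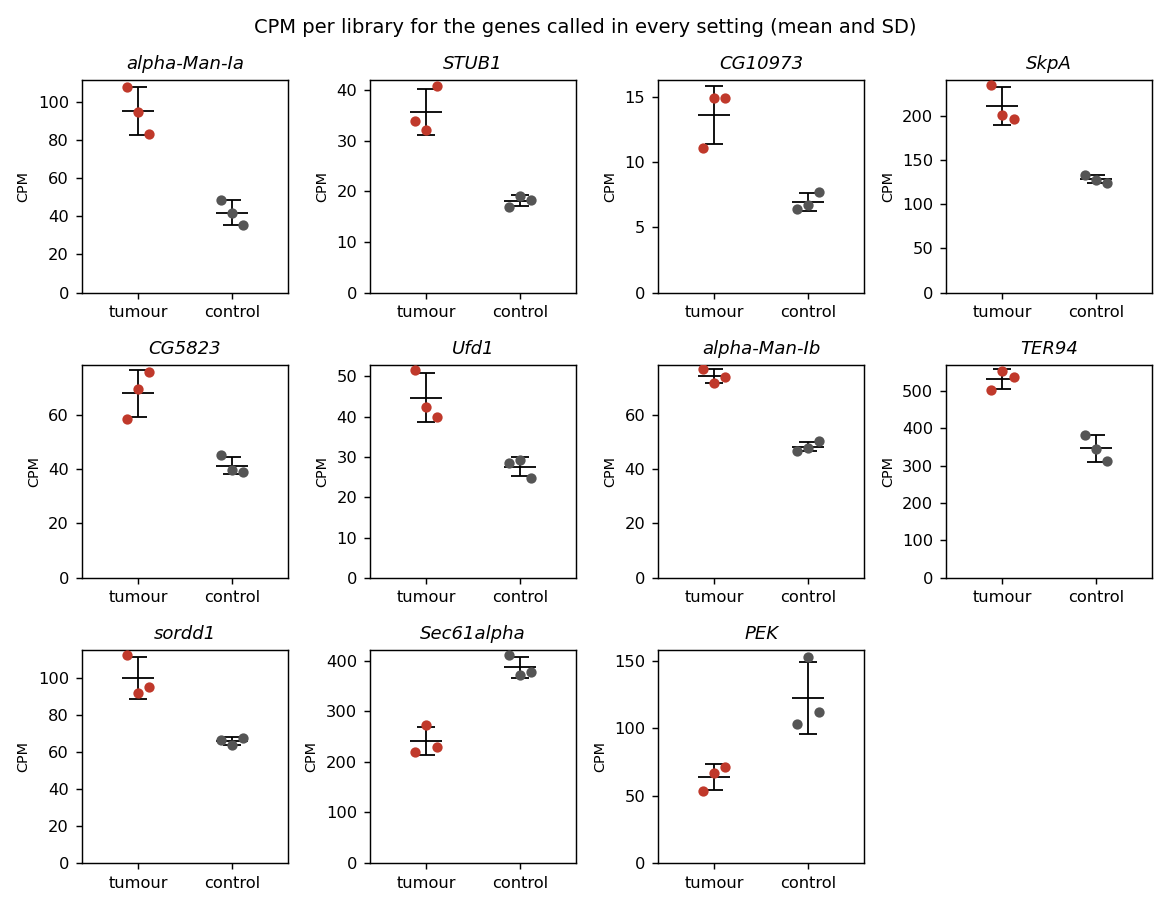
CPM of each library (points), with the mean and SD, in tumour and control tubules for the 11 pathway genes whose calls held in every setting; each panel has its own axis from 0. In every panel the tumour and control points do not overlap, with TER94 at 504 to 555 CPM in tumour and 312 to 383 CPM in control libraries, and Sec61alpha and PEK the only genes with the tumour points below.

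Chaperones of the cytosol were among the most abundant transcripts of the pathway and gave 1 higher and 1 lower call among 16 tested genes. These shares lay below the backgrounds of 14.8 and 13.0%. With library totals alone 4 were higher and 0 lower, against backgrounds of 31.5 and 8.48%. CG10973, annotated as a HspBP1-type exchange factor for HSP70, was at 11.0, 14.9 and 14.9 CPM in tumour tubules, against 6.41, 6.74 and 7.74 CPM in control tubules (0.97 ± 0.19, adjusted p = 0.00772). The small heat shock gene l(2)efl, an alpha-crystallin relative, was lower, at 11.6, 12.4 and 15.2 CPM in tumour tubules, against 18.6, 26.1 and 21.6 CPM in control tubules (-0.76 ± 0.17, adjusted p = 0.0158). Its call was lost without tumour replicate 2 (adjusted p = 0.0531) and with library totals alone (0.115; 0.000410 to 0.115 over all alternatives). Hsc70-4, the constitutive HSP70, was at 3344, 3608 and 3346 CPM in tumour tubules, against 3346, 2972 and 4436 CPM in control tubules (adjusted p = 0.805). Hsp83, the fly HSP90, was at 212, 543 and 649.9 CPM in tumour tubules, against 187, 581 and 1067 CPM in control tubules (-0.39 ± 0.72, adjusted p = 0.729), so each group spread over more than the difference between groups. Droj2, a DnaJ-type cochaperone, was at 421, 571 and 559 CPM in tumour tubules, against 278, 365 and 419 CPM in control tubules, just without overlap (0.55 ± 0.19, adjusted p = 0.0621). The stress-inducible Hsp70 genes lay at a few CPM or less in both groups, and how reads were split between these near-identical copies is uncertain.

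On a scale of CPM per kb of exon, Hsc70-4 had the highest level of the pathway in both groups, at 1264 in tumour and 1319.8 in control tubules. Calr followed with 807 CPM per kb in tumour and 628 in control tubules and ERp60 with 391 in tumour and 376 in control tubules, while Hsc70-3 was at 205 in tumour and 214 in control tubules.

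Of the 3 stress sensors PEK was lower, while Ire1 and Atf6 gave no call. Of 12 tested sensors and effectors 2 were higher and 1 lower, shares near the backgrounds of 14.8 and 13.0%. Library totals alone gave 6 higher calls and 1 lower call, against backgrounds of 31.5 and 8.48% with that scaling. PEK (FBgn0037327, BDGP6 chromosome 3R, 5458563 to 5464753), the fly PERK, a kinase that phosphorylates eIF2alpha and so reduces translation, was at 53.2, 67.2 and 71.7 CPM in tumour tubules, against 103, 153 and 112 CPM in control tubules. It was 1.92-fold lower in tumour tubules, without overlap (-0.94 ± 0.18, adjusted p = 0.00791; -0.65 and 0.0417 with library totals alone). The gene crc (cryptocephal), the fly ATF4, which is translated when eIF2alpha is phosphorylated, was at 221, 181 and 185 CPM in tumour tubules, against 126, 139 and 142 CPM in control tubules (0.53 ± 0.12, adjusted p = 0.0165). Its call was lost without control replicate 1 or tumour replicate 1 (adjusted p = 0.0523 and 0.0715; 0.00201 to 0.0715 over all alternatives), and 73.5% of its exon length overlaps CG46314, so reads of these genes cannot be told apart. The substrate gene eIF2alpha was at 101 ± 6.49 CPM in tumour and 83.2 ± 6.38 CPM in control tubules (0.28, adjusted p = 0.0901). Gcn2, the other eIF2alpha kinase of flies, was at 33.4, 55.9 and 63.7 CPM in tumour tubules, against 43.0, 41.4 and 36.2 CPM in control tubules, with overlapping groups (0.34 ± 0.23, adjusted p = 0.294).

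Ire1, the sensor that splices Xbp1 mRNA, was at 82.5, 90.0 and 78.4 CPM in tumour tubules, against 97.1, 73.8 and 81.6 CPM in control tubules (-0.01 ± 0.13, adjusted p = 0.967). Xbp1, the transcription factor gene it activates, was at 584, 651 and 558 CPM in tumour tubules, against 581, 818 and 660.4 CPM in control tubules (-0.20 ± 0.15, adjusted p = 0.365), and counts per gene do not resolve the spliced form. Atf6, a membrane-held transcription factor that is released by cleavage, was at 88.7, 83.1 and 82.8 CPM in tumour tubules, against 84.0, 55.1 and 77.4 CPM in control tubules (0.23 ± 0.16, adjusted p = 0.314). The kinase gene bsk, the fly JNK, was at 57.6, 55.2 and 54.7 CPM in tumour tubules, against 43.2, 42.5 and 43.1 CPM in control tubules (0.38, adjusted p = 0.0246). Its groups were tight and did not overlap, yet the call was lost without any of the 6 libraries in turn (adjusted p 0.0516 to 0.0861; 0.00268 to 0.0861 over all alternatives).

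COPII genes, whose products bud vesicles from the ER, gave 3 higher and 0 lower calls among 7, against backgrounds of 14.8 and 13.0%. The median was 0.28. With library totals alone 5 were higher, against a background of 31.5%. Sec31, of the outer coat, was at 122, 138 and 127 CPM in tumour tubules, against 85.2, 106 and 87.9 CPM in control tubules (0.47, adjusted p = 0.0250). CG9175, annotated as the Sec12-type exchange factor that starts coat assembly, was at 23.3, 27.1 and 30.8 CPM in tumour tubules, against 18.9, 19.5 and 19.1 CPM in control tubules (0.50, adjusted p = 0.0283). Sec23, of the inner coat, was at 224, 236 and 231 CPM in tumour tubules, against 178, 193 and 176 CPM in control tubules (0.34, adjusted p = 0.0459). The GTPase gene Sar1, which the exchange factor loads, had the opposite sign, at 387, 373 and 355 CPM in tumour tubules, against 448, 422 and 462 CPM in control tubules (-0.26, adjusted p = 0.118; 0.03 with library totals alone). Leaving out any 1 library left 0 or 1 higher call of the 3, with adjusted p up to 0.0910 for Sec31 (lost without any library other than control replicate 2), 0.0847 for CG9175 (any other than tumour replicate 1) and 0.138 for Sec23 (any of the 6). These were the highest values over all alternatives, and the lowest lay between 0.00423 and 0.00778.

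**Figure D5:**
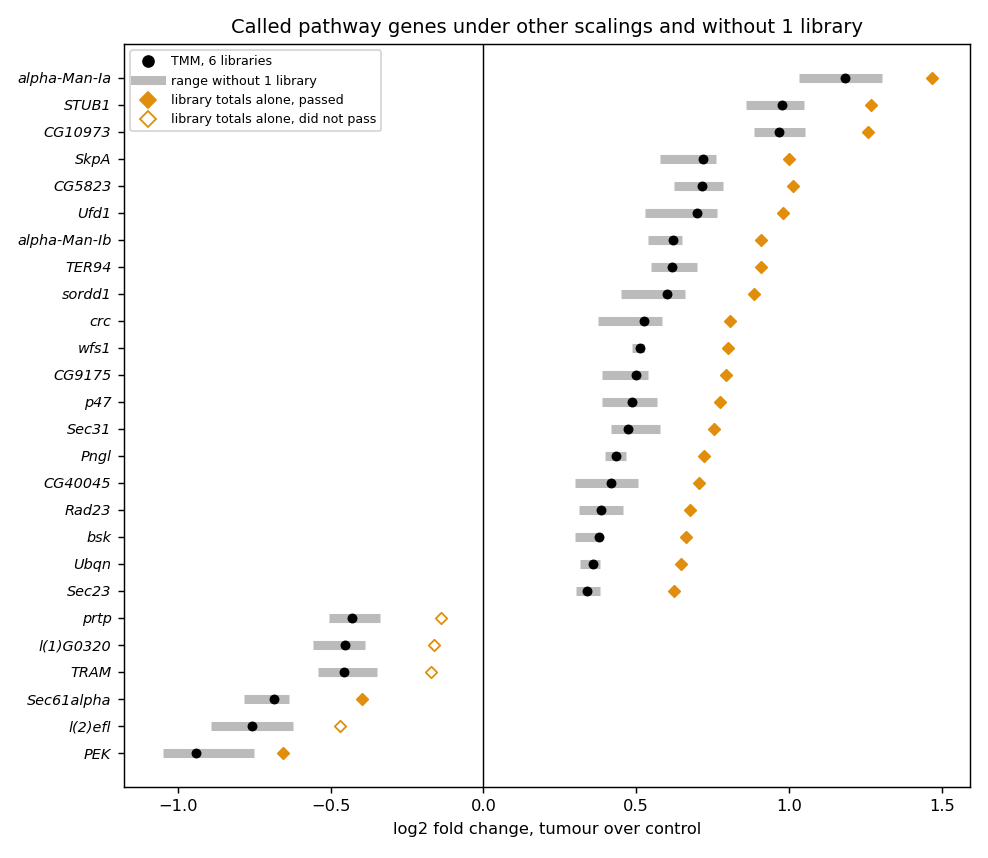
Log2 fold change of tumour over control for the 26 called genes of the pathway: black points are the TMM values with all 6 libraries, grey bars the range when 1 library is left out, and orange diamonds the values scaled by library totals alone, filled where the call held. All diamonds lie to the right of the black points, all diamonds of higher genes are filled, and of the lower genes only Sec61alpha and PEK have a filled diamond.

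The annotation column places the same genes in other pathways, and 50 of the 122 carry no other. Of the 12 tested pathway genes that also belong to ubiquitin mediated proteolysis 4 were higher and 0 lower (median 0.37, against 0.16 for the other tested pathway genes). Of the 12 that also belong to N-glycan biosynthesis 2 were higher and 0 lower (median -0.14, against 0.19 for the others), namely alpha-Man-Ia and alpha-Man-Ib. Among the 6 that share protein export 0 were higher and 1 was lower, Sec61alpha. These sets overlap in membership with the roles above and are given as counts only, beside backgrounds of 14.8% higher and 13.0% lower.

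Neighbouring steps of the secretory route, outside the annotated pathway, were described by lists of known genes. Of 12 tested genes in the list of the signal recognition particle and signal peptidase 5 were higher and 0 lower. For this list and those that follow, the backgrounds were 14.8% higher and 13.0% lower, and 31.5 and 8.48% with library totals alone. The signal recognition particle brings ribosomes to the Sec61 channel, and of its genes Srp9 was at 23.1, 21.5 and 24.5 CPM in tumour tubules, against 15.7, 14.5 and 13.6 CPM in control tubules (0.66 ± 0.13, adjusted p = 0.00753). Srp68 was at 103, 97.9 and 97.0 CPM in tumour tubules, against 66.5, 69.1 and 74.8 CPM in control tubules (0.50 ± 0.10, adjusted p = 0.00926), and Srp14 was at 16.2 ± 1.46 CPM in tumour and 9.55 ± 1.34 CPM in control tubules (0.76, adjusted p = 0.0114). The other 2 calls, Srp19 and Srp54, were named after their values were seen, and by its known role Srp54 is a splicing factor rather than a subunit of the particle, which in flies is Srp54k (0.25, adjusted p = 0.0940). Without any 1 library 2 or 3 of the 5 calls held, and 9 genes were higher with library totals alone. The signal peptidase gene Spase25 was at 86.6 ± 3.20 CPM in tumour and 106 ± 7.48 CPM in control tubules (-0.29, adjusted p = 0.0730).

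Of 14 genes that build the lipid-linked glycan precursor, Dpm1 was higher (0.47, adjusted p = 0.0192) and wol was lower (-0.47, adjusted p = 0.0238), with 0 or 1 call in each direction when 1 library was left out. With library totals alone 2 were higher and 0 lower. Dpm1 makes the mannose donor of this pathway and wol its glucose donor. Of 9 genes of COPI vesicles, which return proteins to the ER, 2 were higher (background 14.8%), and with library totals alone 8 were (background 31.5%). The gene epsilonCOP was at 118, 97.9 and 89.0 CPM in tumour tubules, against 68.6, 68.3 and 68.5 CPM in control tubules (0.57 ± 0.13, adjusted p = 0.0131), and zetaCOP was at 51.0 ± 5.55 CPM in tumour and 34.1 ± 2.92 CPM in control tubules (0.58, adjusted p = 0.0123). Without control replicate 3 zetaCOP no longer passed (adjusted p = 0.0510; 0.00162 to 0.0510 over all alternatives). KdelR, the receptor that retrieves ER residents, was at 179, 192 and 168 CPM in tumour tubules, against 201, 239 and 232 CPM in control tubules, without overlap (-0.32, adjusted p = 0.0787).

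Of 8 genes listed as targets of the unfolded protein response 2 were higher and 0 lower, against backgrounds of 14.8 and 13.0%. Manf, a secreted ER stress protein, was at 71.6, 82.7 and 80.9 CPM in tumour tubules, against 53.6, 57.2 and 55.2 CPM in control tubules (0.50 ± 0.11, adjusted p = 0.0111), a call that held without each library in turn. Erasp was at 29.0, 21.5 and 14.6 CPM in tumour tubules, against 0.557, 0.784 and 0.486 CPM in control tubules (5.14 ± 0.34, adjusted p = 8.01e-05), a far larger difference than that of any called gene of the pathway. Herp, a degradation gene that responds to ER stress and lies outside the annotation, was at 278, 398 and 372 CPM in tumour tubules, against 299.8, 377 and 313 CPM in control tubules (adjusted p = 0.742). Of the 8 degradation genes outside the annotation only CG8209 passed (0.53, adjusted p = 0.0103). Library totals alone gave 4 higher calls.

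Among 9 sensors and effectors of the response that lie outside the annotation 2 were higher and 2 lower, all named after their values were seen. The calpain gene CalpA was at 50.5, 44.3 and 40.7 CPM in tumour tubules, against 24.6, 20.4 and 23.0 CPM in control tubules (0.99 ± 0.13, adjusted p = 0.00149), a call that held in all 15 alternatives. BI-1, the fly Bax inhibitor, was at 335 ± 30.1 CPM in tumour and 244 ± 18.8 CPM in control tubules (0.45, adjusted p = 0.0293). Debcl, a Bcl-2 family gene, and the calpain gene CalpB were lower, at 136 ± 24.5 and 151 ± 29.3 CPM in tumour and 200.1 ± 31.4 and 244 ± 60.6 CPM in control tubules (-0.56 and -0.69, adjusted p = 0.0438 and 0.0407). The calls of BI-1, Debcl and CalpB were each lost in 4 of the 6 fits without 1 library (adjusted p up to 0.109, 0.123 and 0.114). Over all alternatives their adjusted p lay between 0.00118 and 0.109 for BI-1, 0.00722 and 0.192 for Debcl, and 0.00248 and 0.167 for CalpB. Library totals alone gave 3 higher and 0 lower calls in this list.

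The other 15 pathway genes were not tested, with at most 57 counts over the 6 libraries, and 4 of them, Roc1b, SkpE, SkpF and Gint3, had 0 counts in every library. At these depths 0 counts still allow for 3 counts, or 0.0517 to 0.0816 CPM in tumour and 0.0760 to 0.0911 CPM in control libraries, and this limit covers counting error only. It does not bound Roc1b and Gint3, whose whole exon length overlaps another gene (Cdc5 and CG42306), since reads shared with that gene may not have been counted. Hsp70Ba had 50 counts in tumour and 7 in control libraries, and it is among the Hsp70 copies whose reads are uncertain. Of the 107 tested genes 44 share exon sequence with another annotated gene, and the strandedness of counting is not given in the sources used here.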

How the data were processed

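RNA of Malpighian tubules was selected for poly-A transcripts and sequenced as TruSeq libraries on a HiSeq instrument, per the labels' protocols. The authors deposited raw counts of reads per gene, with 1 column for each of 6 libraries. TopHat, Cufflinks and HTSeq are named, without versions or roles, per the submitters' processing notes; neither the build nor whether strand was used in counting is given in the sources. Coordinates and exon lengths are from Ensembl BDGP6 by gene identifier.

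Genes were filtered with filterByExpr (minimum count 10, minimum total 15), which left 9789, and compared as tumour over control in edgeR 4.0.16 with TMM, a robust quasi-likelihood fit with group alone, a two-sided test and Benjamini-Hochberg adjustment at 0.05. SE is the log2 fold change divided by the square root of F. R 4.3.3, limma 3.58.1, DESeq2 1.42.0, Python 3.11.15, pandas 2.3.3, numpy 2.4.6 and matplotlib 3.10.9 were used. On simulated data the fit recovered 44 of 100 changes of 2-fold and 68 of 100 changes of 4-fold. Of its 125 calls there 13 were false. Only 100 genes at each of these folds were changed among 9789 in the simulation, while 2726 genes were called in the data. The simulated shares therefore need not hold for the test reported here. Alternatives were RLE and upper-quartile scaling, library totals alone, no filter, DESeq2, limma-voom, a replicate block, a filter of 5 CPM in 3 libraries, fits without each library or without the 20 most abundant genes, and a threshold of 0.01.

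The pathway genes, the role lists and the marker lists were chosen with earlier results of these data known. Of the 122 genes 104 took their role from a list and 18 from the description in the table, and the groups within ER-associated degradation were made after values were seen. Genes were named by a rule: a set of sentinels, the 4 smallest adjusted p in a role (2 where none passed), the 6 largest rises and 6 largest falls, and up to 3 per list outside the pathway. Other genes given with values were chosen after these were seen.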

Additional observations from a re-analysis of the deposited data

How the results depend on the processing

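Against 20 higher and 6 lower calls, library totals alone gave 49 higher and 2 lower (backgrounds of 31.5 and 8.48% of all genes). A threshold of 0.01 gave 9 higher and 2 lower. Leaving out 1 library gave 10 to 14 higher and 2 to 6 lower calls. There were 10 higher without control replicate 3 and 2 lower without tumour replicate 2. The share of all genes that passed at 0.01 or without 1 library was not counted. These counts, and the role counts without 1 library, therefore do not show a loss of calls particular to the pathway. The other settings gave 15 to 22 higher and 4 to 8 lower calls. Over the 53 genes followed through 15 settings, 793 values in all, 694 kept their direction and their side of the threshold, 89 lost a call, 10 gained one and 0 called values changed sign; values that passed in neither setting changed sign in 21 of 258 pairs. With RLE scaling CG40045, Rad23, Sec23, Ubqn and bsk lost their calls. Over all tested genes, deviations from the group means correlated at 0.08, -0.08 and 0.06 between same-numbered libraries. Differently numbered pairs lay between -0.15 and 0.10, and tumour replicate 2 correlated best with control replicate 1. In the chaperone and disulfide genes, though, replicate 1 was often the lowest and replicate 2 often the highest library in both groups. Whether same-numbered libraries shared a batch was not tested. With the replicate block 22 genes were higher and 4 lower, and l(1)G0320 and prtp lost their calls. The cause of these changes was not tested. With 3 libraries a group, a difference that missed the threshold is not shown to be absent.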
